A study of Mus musculus with 14 samples.

Results

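The spleen of AcB61 mice was compared with that of A/J mice on the 8 arrays whose first channel is labelled as AcB61 spleen, of 14 arrays in the series. The other 6 arrays carried spleen RNA of a related strain, AcB55, and every array had A/J spleen RNA in its second channel. AcB61 and AcB55 are recombinant congenic strains, inbred lines in which segments of the C57BL/6 genome sit on an A/J background; the title of the series is about malaria resistance. A/J mice are known to be susceptible to blood-stage malaria, whereas both strains are known for resistance and for a deficiency of the red cell pyruvate kinase, encoded by Pklr. The sources used here do not give sex, age, infection, the number of mice, or whether arrays shared a mouse or an RNA pool.

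Each value is the log2 of the ratio of both channels for a gene on 1 array, so that 1 is a doubling and 0 is no difference. Base 2 is assumed. Positive values likely mean more RNA in AcB61, because AcB61 is labelled as channel 1 and A/J as channel 2; the dyes of each array are not given. A/J was never hybridised against A/J, so a test of the mean ratio against 0 does not include how A/J mice vary, and the p-values measure only how the arrays scatter, which may be technical. The number of arrays limits the precision. Because the spleen was measured as bulk tissue, fewer cells of a type and less RNA per cell cannot be told apart. Ratios carry no level, so the tissue label could not be checked against markers of spleen.

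The mouse spleen filters aged red cells from the blood, holds B cells, T cells and macrophages in a stromal mesh, and makes red cells when demand rises. Red cell precursors divide while they import iron, build haem through a chain of enzymes that starts and ends in the mitochondrion, and load it into globin. They then leave the cell cycle and keep a small set of enzymes and a membrane skeleton with its transporters. The gene lists below follow these roles, and lists of other spleen cells stand beside them.

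The promoters of 4 genes that rose in AcB61 are shown because they are the strongest member, with an entry, of the lists for haem synthesis, the red cell membrane, DNA replication and mitosis. They are Alad, the second enzyme of haem synthesis (chr4:62520014-62520313), Mpp1, a scaffold protein of the red cell membrane (chrX:75130967-75131266), Pcna, the sliding clamp of DNA polymerase (chr2:132253131-132253430), and Mki67, the Ki-67 protein of dividing cells (chr7:135716330-135716629). All 4 lie on the minus strand of GRCm38.p6, the sequences are those of RefSeq, and each runs 5′ to 3′ along the gene from 250 bases before the start to 50 after it. Capitals mark matches, on either strand, to the CCAAT box (CCAAT), to the hexamers bound by GATA factors (AGATAA or its variant AGATAG, and likewise TGATAA or its variant TGATAG) or to the CHR element (TTTGAA), a motif of cell cycle promoters.
Alad: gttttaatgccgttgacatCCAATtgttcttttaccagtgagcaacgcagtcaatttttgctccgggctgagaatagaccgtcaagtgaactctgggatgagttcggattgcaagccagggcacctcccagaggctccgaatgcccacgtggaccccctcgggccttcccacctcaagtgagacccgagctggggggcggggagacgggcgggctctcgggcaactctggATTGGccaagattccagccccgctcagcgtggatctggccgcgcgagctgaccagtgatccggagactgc
Mpp1: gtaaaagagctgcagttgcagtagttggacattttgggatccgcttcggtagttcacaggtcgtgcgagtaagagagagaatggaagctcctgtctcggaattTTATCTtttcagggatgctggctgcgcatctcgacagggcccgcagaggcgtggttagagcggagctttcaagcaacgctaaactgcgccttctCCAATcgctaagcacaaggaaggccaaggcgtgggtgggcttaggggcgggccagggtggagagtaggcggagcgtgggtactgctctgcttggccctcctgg
Pcna: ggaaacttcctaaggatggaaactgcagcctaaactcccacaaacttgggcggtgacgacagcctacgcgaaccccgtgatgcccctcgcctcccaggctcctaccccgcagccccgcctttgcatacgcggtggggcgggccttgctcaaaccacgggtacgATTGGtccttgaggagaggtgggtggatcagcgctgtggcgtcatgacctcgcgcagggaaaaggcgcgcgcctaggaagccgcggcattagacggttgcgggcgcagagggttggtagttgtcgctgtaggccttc
Mki67: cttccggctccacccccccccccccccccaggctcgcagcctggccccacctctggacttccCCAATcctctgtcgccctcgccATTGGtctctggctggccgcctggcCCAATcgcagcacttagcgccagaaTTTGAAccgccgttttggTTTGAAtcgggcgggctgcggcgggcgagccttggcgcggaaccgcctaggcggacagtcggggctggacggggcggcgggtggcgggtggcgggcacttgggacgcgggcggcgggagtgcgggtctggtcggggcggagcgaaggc
Mki67 held 3 CCAAT boxes and 2 CHR elements, the latter 116 and 98 bases before the start. Pcna held 1 CCAAT box, Alad 2, and Mpp1 1 together with a GATA hexamer that reads on the other strand. A CACC box (CCACACCC) or an E2F site (TTTGGCGC, TTTCCCGC or TTTCGCGC) was not found in these 4 windows. Of 53 measured genes of mitosis and cyclins with a promoter entry, 54.7% held a CHR element and 71.7% a CCAAT box, against 12% and 39.3% of 5142 tested genes. E2F sites were found in 31.1% of 45 promoters of DNA replication genes and 11.3% of those of mitosis genes, against 3.95% of all tested genes. GATA hexamers were found in 11.8% of 17 haem synthesis promoters and in 4 of 7 red cell membrane promoters, against 18% of all tested genes. These are matches of letters in a short window and not sites of binding.

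Of 13051 features tested, 2580 (19.8%) passed an adjusted p of 0.05 in AcB61, 1121 higher (8.59%) and 1459 lower (11.2%). A feature is a gene with its spots averaged on each array, or a spot that carries no single gene symbol. Among the 6288 single-symbol genes 1165 passed (18.5%), with 701 higher (11.1%) and 464 lower (7.38%), while the 6763 other features leaned the other way with 420 higher and 995 lower. Changes of at least 1.5-fold among the single-symbol genes that passed were 125 increases and 23 decreases, and 5 increases and 3 decreases reached 2-fold. Adjusted p-values throughout are those of limma after Benjamini-Hochberg correction across the features tested.

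The 8 arrays were not alike. Replicates 2, 6 and 8 correlated with each other over all features at r = 0.788 to 0.833, and replicates 3, 5 and 7 at 0.704 to 0.795, but arrays of the first set with arrays of the second gave only -0.0894 to 0.151. Replicates 1 and 4 lay between, at 0.368 to 0.638 with the first set and 0.365 to 0.612 with the second. Over the features of an array the log2 ratios of replicates 1 and 4 had the smallest SD, 0.198 and 0.215 against 0.257 to 0.328 on the other 6. These 2 arrays correlated better with the average of both set means (0.77 and 0.74) than with either set mean. That can follow from arithmetic alone, because the set means themselves hardly correlated (r = 0.0984). The sets were found in the data and are not named in the labels. Whether arrays share an RNA, are dye-swap partners or hold averages of other arrays is not stated there and was not tested, so n = 8 counts arrays as deposited. The ranges of both sets did not overlap in 3306 of the 6029 genes measured on all arrays (54.8%), and their means had opposite signs in 55.4% of all tested genes. Among the 1165 genes that passed the test, opposite signs were seen in 25 (2.15%), although a call itself needs arrays that go the same way. With the sets as a random block, a choice made after the data were seen, 954 features passed (456 higher and 498 lower), every one of them among the 2580. Of these 423 were single-symbol genes (6.73% of those tested), 283 higher and 140 lower. The block fit used 1 correlation (0.539) for all features. A call kept or lost there thus does not show whether a gene differed between the sets. Rhd, with set means of 0.38 and 1.37, kept its call (limma adjusted p = 0.0017 without and 0.00142 with the block). Gapdh, with set means of 0.23 and 0.28, lost it (0.00482 and 0.101). Counts under this block are given beside most lists below.

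**Figure D1:**
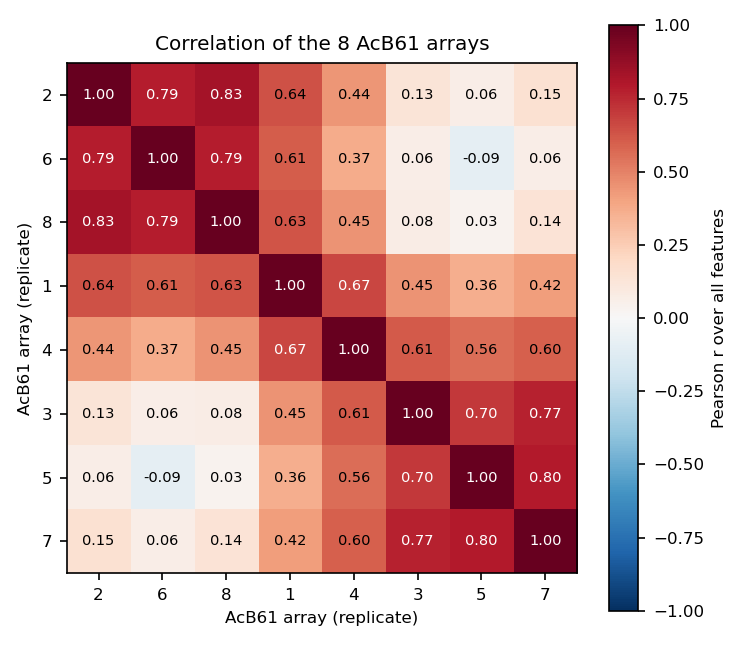
Pearson correlation over all features between each pair of the 8 AcB61 arrays, with both axes giving the replicate and the colour scale running from -1 to 1. Replicates 2, 6 and 8 and replicates 3, 5 and 7 form 2 blocks, and between the blocks r lies from -0.0894 to 0.151.

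**Figure D2:**
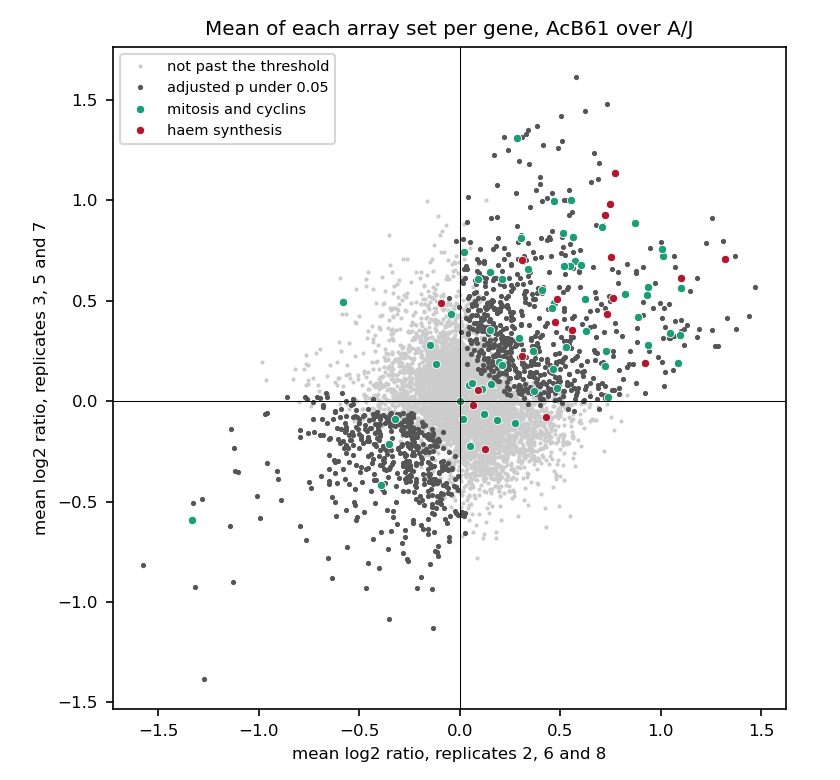
Mean log2 ratio of AcB61 over A/J for each tested gene in replicates 2, 6 and 8 (x axis) against replicates 3, 5 and 7 (y axis), with genes past the threshold in dark grey and the genes of haem synthesis and mitosis in colour. Over all 12889 features with both means the sets correlated at 0.0984, and genes past the threshold lie mostly where both means share a sign.

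Haem synthesis was the list with the largest share of called genes among lists of at least 5 measured genes in which all calls went up: 14 of 19 rose, 0 fell and 5 did not pass (73.7%, against 11.1% of all tested genes). The median of the list was 0.52, against 0.015 over all genes, and its mean lay between 0.36 and 0.59 on every array. With the array sets as a block 12 remained past the threshold. Alas2, the erythroid form of the first and rate-limiting enzyme, read from 0.58 to 1.14 with a median of 1.03, a mean of 0.92 ± 0.23 (SD, n = 8, adjusted p = 2.69e-05). Its lowest values were those of replicates 6, 7 and 8, and the other 5 arrays lay between 0.97 and 1.14. Alas1, the form of the same enzyme in other tissues, read from 0.15 to 0.69 (median 0.42) and rose by 0.41 ± 0.19 (n = 7, adjusted p = 0.00225). Alad, the next enzyme, read from 0.68 to 1.38 (median 0.80) with a mean of 0.96 ± 0.31 (adjusted p = 0.000103). Replicates 2, 6 and 8 gave 1.22 to 1.38 for Alad and the other arrays 0.68 to 0.87, so its sets did not overlap, yet every array was above 0. The 2 spots of Alad gave nearly the same mean, 0.95 and 0.96.

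Of the later enzymes of the chain 3 rose and 1 did not pass. Uros, which closes the ring, read from 0.31 to 0.60 (median 0.49; 0.47 ± 0.12, adjusted p = 0.000144), and Ppox, the last enzyme but one, from 0.27 to 0.81 (median 0.58; 0.52 ± 0.23, n = 7, adjusted p = 0.00122). Urod read from 0.06 to 0.82 (median 0.36; 0.40 ± 0.27, adjusted p = 0.00629), a call that was lost with the array sets as a block (adjusted p = 0.0938). Cpox, the enzyme between Urod and Ppox, read from -0.32 to 0.77 and did not pass (0.16 ± 0.35, adjusted p = 0.326).

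Abcb10, a transporter in the inner mitochondrial membrane, read from 0.54 to 0.83 with a median of 0.70 (0.70 ± 0.09, adjusted p = 1.58e-05). It averages 2 spots, at 0.61 ± 0.28 and 0.79 ± 0.29, each of which varied more between arrays than their average. Tmem14c, which moves haem precursors, read from 0.56 to 1.23 (median 0.71; 0.81 ± 0.26, adjusted p = 0.000112), and Slc25a39, a carrier of glutathione, from 0.53 to 1.21 (median 0.80; 0.79 ± 0.20, adjusted p = 4.11e-05). Glrx5, which assembles iron-sulphur clusters, read from 0.58 to 1.26 (median 0.87; 0.89 ± 0.25, adjusted p = 5.61e-05). Replicate 3 was the highest array for both Slc25a39 and Glrx5, and no array of either fell below 0.53. Slc25a37, the mitochondrial iron importer, averaged 0.52 ± 0.20 (0.22 to 0.77, median 0.54, adjusted p = 0.000432) over 2 spots that disagreed: 1 gave 1.01 ± 0.33 and the other 0.018 ± 0.11. Abcb6 (0.54 ± 0.23) and the haem transporter Slc48a1 (0.56 ± 0.36) also rose, with adjusted p of 0.000605 and 0.004. Of these carriers Slc48a1 differed most between the sets, 0.92 in replicates 2, 6 and 8 and 0.19 in replicates 3, 5 and 7. Lias, the lipoic acid synthase, passed at 0.24 ± 0.11 (adjusted p = 0.00544) but not with the block (0.0996). The other members that did not pass were the haem exporter Flvcr1 (0.03 ± 0.07), its relative Flvcr2 (-0.05 ± 0.17), the cluster assembly gene Isca1 (0.06 ± 0.09) and Clpx (0.15 ± 0.28), a mitochondrial chaperone that acts on the first enzyme.

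**Figure D3:**
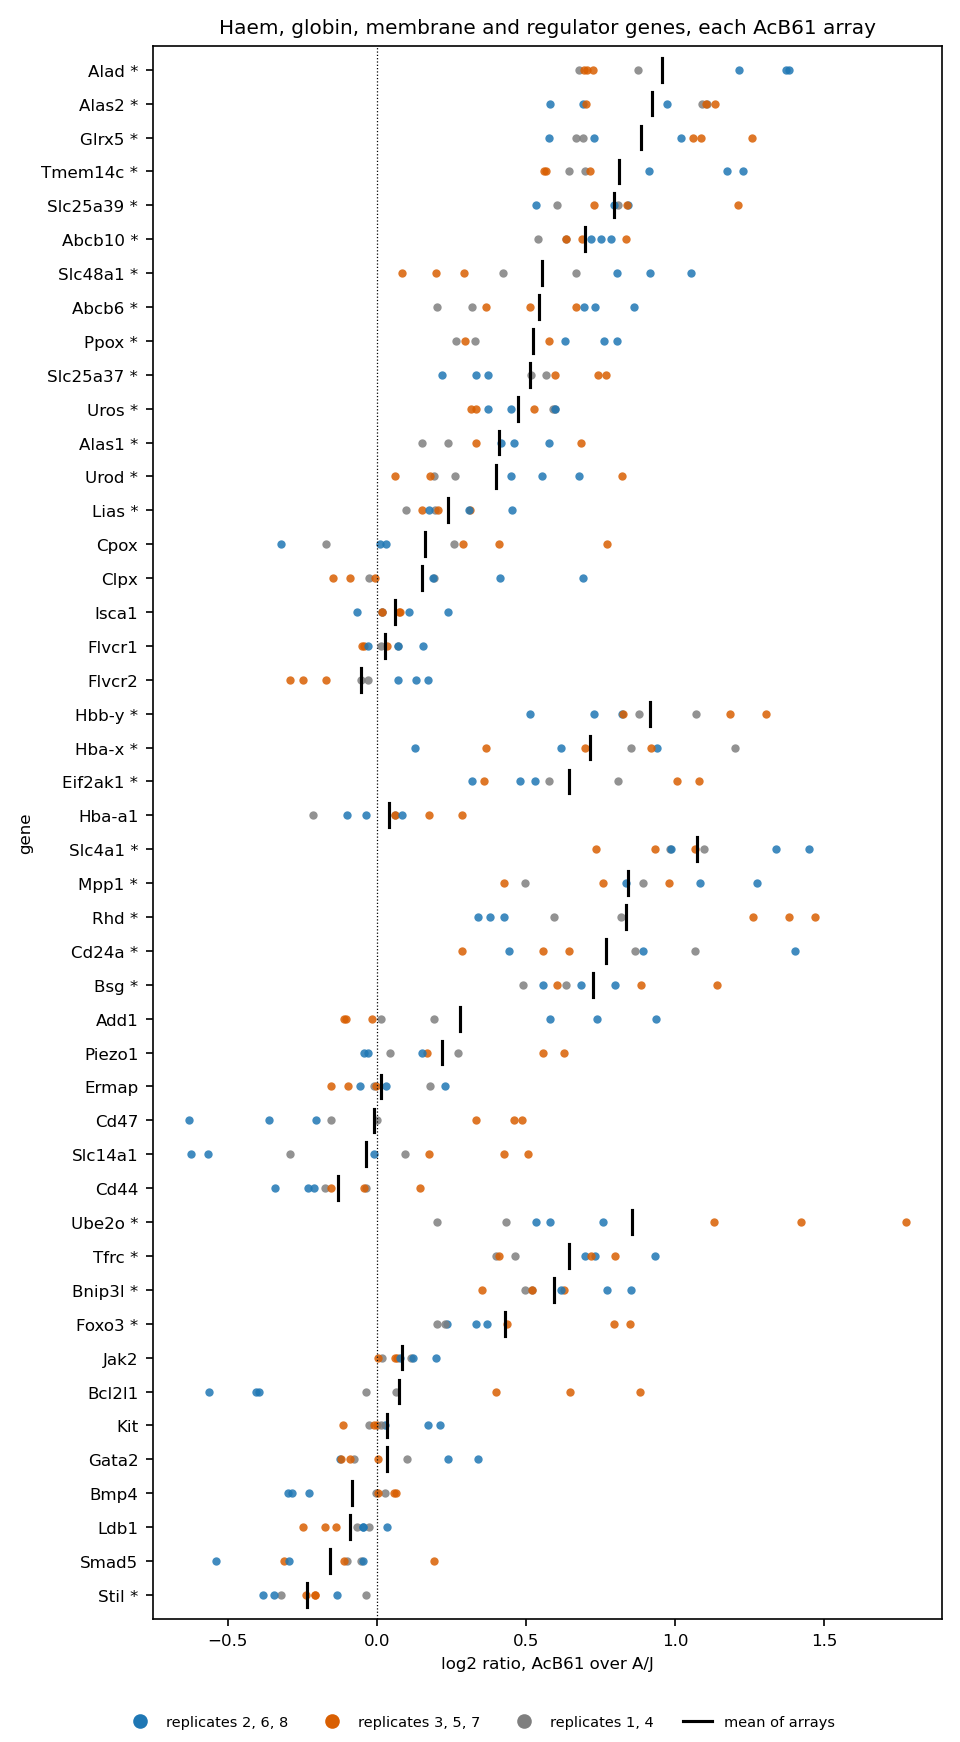
Log2 ratio of AcB61 over A/J (x axis) on each array for the measured genes of haem synthesis, globins, the red cell membrane and erythroid regulators (y axis), with dots coloured by array set, a bar at the mean and an asterisk where the adjusted p is under 0.05. Alas2, Alad, Slc4a1 and Abcb10 lie above 0.5 on all 8 arrays, whereas Bcl2l1 and Cd47 have the sets on opposite sides of 0.

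Globins and the genes that use haem were measured by only 4 genes, of which 3 rose, also with the block, and 1 did not pass (75% higher, against 11.1% of all tested genes). Hbb-y, an embryonic beta-like globin, read from 0.51 to 1.30 (median 0.85; 0.92 ± 0.26, adjusted p = 5.42e-05), and its 4 spots gave means between 0.86 and 1.03. Hba-x, an embryonic alpha-like globin, read from 0.13 to 1.20 (median 0.78; 0.72 ± 0.34, adjusted p = 0.000791). Replicate 8 was the lowest array for both. Globin genes are close copies of each other, so the spots may also have bound transcripts of related globins and these 2 identities are uncertain. Hba-a1, adult alpha globin, read from -0.21 to 0.29 (median 0.06) and did not pass (0.04 ± 0.16, adjusted p = 0.696). Its 7 spots had nearly identical means, 0.037 to 0.048, and SDs of 0.16 each. Whether they are separate readings was not tested. Eif2ak1, the kinase that slows globin translation when haem is scarce, rose by 0.65 ± 0.29 (0.32 to 1.08, median 0.55, adjusted p = 0.000623).

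Of 11 genes of the red cell membrane 5 rose, 0 fell and 6 did not pass (45.5% higher, against 11.1% of all tested genes). The median was 0.28, and the same number, 5, passed with the block. Slc4a1, the anion exchanger known as band 3, rose the most, with 0.73 to 1.45 over the arrays, a median of 1.03 and a mean of 1.07 ± 0.23, or 2.1-fold (adjusted p = 1.58e-05). Mpp1 read from 0.43 to 1.27 (median 0.86; 0.84 ± 0.28, adjusted p = 0.000135), with replicates 4 and 5 lowest. Bsg, a chaperone of membrane transporters, read from 0.49 to 1.14 (median 0.66; 0.72 ± 0.21, adjusted p = 9.8e-05). Rhd and Cd24a had set means in opposite order, but only for Rhd did the sets not overlap. Rhd, the Rh blood group protein, read 1.26 to 1.47 on replicates 3, 5 and 7, and on replicates 2, 6 and 8 only 0.34 to 0.43 (0.83 ± 0.47, adjusted p = 0.0017). Cd24a, a surface protein of red cell precursors and young B cells, averaged 0.91 in replicates 2, 6 and 8 and 0.49 in replicates 3, 5 and 7 (0.77 ± 0.36, adjusted p = 0.000673). Its sets overlapped, and replicates 1 and 4 averaged 0.97. The 6 that did not pass were Add1 (0.28 ± 0.41) of the membrane skeleton, the mechanosensitive channel Piezo1 (0.22 ± 0.25), Ermap (0.02 ± 0.13), Cd47 (-0.01 ± 0.41), which protects red cells from phagocytes, the urea transporter Slc14a1 (-0.04 ± 0.42) and Cd44 (-0.13 ± 0.15). For Cd47 the sets averaged -0.40 and 0.43, so a mean near 0 there stands for arrays that disagree.

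Erythroid regulators were mixed: of 12 measured, 4 rose, 1 fell and 7 did not pass (median 0.05). The shares were 33.3% higher and 8.33% lower, against 11.1% and 7.38% of all tested genes. The 4 that rose kept their calls with the block. Ube2o, an enzyme that tags proteins for removal as red cells mature, read from 0.20 to 1.77 (median 0.67; 0.85 ± 0.54, adjusted p = 0.00297), with replicates 3, 5 and 7 above 1.1. Tfrc, the transferrin receptor that brings iron into precursors, read from 0.40 to 0.93 (median 0.71, mean 0.64 ± 0.20, adjusted p = 0.00012). Its 2 spots gave means of 0.46 and 0.82. Bnip3l, needed to clear mitochondria from maturing red cells, read from 0.35 to 0.85 (median 0.57; 0.60 ± 0.16, adjusted p = 0.000101). Foxo3, a transcription factor of late precursors, read from 0.20 to 0.85 (median 0.35; 0.43 ± 0.25, adjusted p = 0.00335). Stil, a centriole gene, fell by 0.23 ± 0.12 (adjusted p = 0.00611), a call lost with the block (0.116). Early regulators did not pass: the stem cell factor receptor Kit (0.04 ± 0.11), Gata2 (0.03 ± 0.18), the erythropoietin receptor kinase Jak2 (0.08 ± 0.06), the cofactor Ldb1 (-0.09 ± 0.09), Bmp4 (-0.08 ± 0.16) and Smad5 (-0.16 ± 0.22). Bcl2l1, which protects precursors from apoptosis, averaged -0.46 in replicates 2, 6 and 8 and 0.64 in replicates 3, 5 and 7, with 0.01 in replicates 1 and 4 (adjusted p = 0.798).

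Of 20 red cell enzymes and antioxidants 13 were higher, 0 lower and 7 not past (65% higher, against 11.1% of all tested genes; median 0.46), and 9 passed with the block. Bpgm, which makes the regulator of oxygen release by haemoglobin, read from 0.44 to 1.55 (median 0.72; 0.86 ± 0.40, adjusted p = 0.000599), and replicates 3, 5 and 7 averaged 1.29 against 0.51 in replicates 2, 6 and 8. Mgst3, a glutathione transferase, was tighter at 0.63 to 1.12 (median 0.82; 0.85 ± 0.16, adjusted p = 1.58e-05). Car1, a carbonic anhydrase of red cells, read from 0.42 to 1.14 (median 0.77; 0.77 ± 0.24, adjusted p = 0.000103). Every array was above 0.4 for all 3 of these enzymes. Glrx5 belongs to this list as well as to haem synthesis.

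Glycolysis, the pathway that the pyruvate kinases complete, held 4 genes that rose, 1 that fell and 8 that did not pass of 13 (median 0.02). The shares were 30.8% higher and 7.69% lower, against 11.1% and 7.38% of all tested genes. With the block 2 were higher and 0 lower. Bpgm, shared with the enzymes above, and Hk1, the hexokinase of red cells, passed in both fits, and Hk1 read from 0.27 to 1.05 (median 0.38; 0.53 ± 0.28, adjusted p = 0.0018, and 0.0323 with the block). Pfkm (0.34 ± 0.22, adjusted p = 0.00666) and Gapdh (0.23 ± 0.10, adjusted p = 0.00482) lost their calls there (0.106 and 0.101). Pkm, the pyruvate kinase of other tissues, read from -0.74 to 0.02 (median -0.28; -0.33 ± 0.31) and passed at adjusted p = 0.0255, but not with the block (0.0564). That call was also lost without replicate 1, 2, 6 or 8, at adjusted p of 0.0531, 0.0653, 0.0591 and 0.0604. Pklr was not analysed here.

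Iron handling genes gave 5 increases of 11 measured and 0 decreases, with 6 not past (45.5% higher, against 11.1% of all tested genes). The median was 0.09, and only Lcn2 and Tfrc passed with the block. Both belong to other lists here as well. Fth1, the heavy chain of the iron store ferritin, rose by 0.25 ± 0.22 (-0.10 to 0.62, median 0.21, adjusted p = 0.0277), and not with the block (0.114). Its call was lost without replicate 1, 2, 4 or 5 (adjusted p = 0.0676, 0.054, 0.0765 and 0.0596). Hmox1, which degrades haem in macrophages, read from -0.37 to 0.55 (median 0.13) and did not pass (0.09 ± 0.26, adjusted p = 0.488).

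The lists of dividing cells held the most genes that rose in AcB61. Of 51 genes of DNA replication and nucleotide supply 27 rose, 0 fell and 24 did not pass (52.9%; median 0.22), and 14 passed with the block. Of 63 genes of mitosis and cyclins 41 rose, 4 fell and 18 did not pass (65.1% higher and 6.35% lower; median 0.38), and 30 rose and 2 fell with the block. Over all tested genes 11.1% were higher and 7.38% lower. Mean values of the replication list lay between 0.17 and 0.38 on the arrays and those of the mitosis list between 0.22 and 0.46.

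Pcna read from 0.49 to 1.30 with a median of 0.81, a mean of 0.85 ± 0.26 or 1.8-fold (adjusted p = 9.1e-05), highest on replicate 6 and lowest on replicate 5. Mcm6, a subunit of the replicative helicase, read from 0.24 to 1.29 (median 0.76; 0.74 ± 0.35, adjusted p = 0.000673). Of the other subunits, looked at after the values were seen, Mcm2 (0.68 ± 0.34), Mcm3 (0.42 ± 0.22), Mcm5 (0.66 ± 0.36) and Mcm7 (0.46 ± 0.42) rose as well, with adjusted p of 0.000986, 0.00226, 0.00153 and 0.0197. Mcm4 did not pass (0.13 ± 0.15, adjusted p = 0.144). Tk1, the thymidine kinase of S phase, and Rrm2, a subunit of ribonucleotide reductase, rose with the sets in opposite order. Tk1 read from 0.29 to 1.16 (median 0.56; 0.69 ± 0.33, adjusted p = 0.000808), with 0.94 to 1.16 on replicates 2, 6 and 8. Rrm2 read from 0.05 to 1.49 (median 0.61; 0.69 ± 0.58, adjusted p = 0.0131), with 1.18 to 1.49 on replicates 3, 5 and 7, and on replicates 1, 2, 6 and 8 only 0.05 to 0.40.

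Mki67 read from 0.49 to 1.05 (median 0.84; 0.82 ± 0.20, adjusted p = 3.22e-05), and Birc5, a survival protein of dividing cells, from 0.59 to 1.13 (median 0.80; 0.81 ± 0.20, adjusted p = 3.48e-05). The sets overlapped for Birc5 and were close for Mki67, with 0.93 to 1.05 on replicates 2, 6 and 8 against 0.60 to 0.86. They lay far apart for Stmn1, a tubulin regulator, at 1.17 to 1.49 on replicates 3, 5 and 7, and on replicates 2, 6 and 8 only 0.21 to 0.36 (0.81 ± 0.49, adjusted p = 0.00239). Ccne1, the cyclin of entry into S phase, read from 0.36 to 1.14 (median 0.76; 0.78 ± 0.26, adjusted p = 0.000144). The 4 that fell were Btg1, Rb1, Ccnd2 and Pttg1. Btg1, which restrains proliferation, fell by 0.90 ± 0.40 (-1.52 to -0.47, median -0.77, adjusted p = 0.000472). Rb1, which restrains entry into S phase, fell by 0.22 ± 0.18 (adjusted p = 0.0229), a call lost with the block (0.178) and without replicate 1, 2, 4 or 6 (0.0604, 0.0598, 0.0575 and 0.0541). Ccnd2, a D-type cyclin that lymphocytes use, fell by 0.36 ± 0.12 on all 8 arrays (adjusted p = 0.000673). It averages 6 spots with means of -0.64 to -0.10. The spots at -0.22 and -0.10 did not pass on their own (limma adjusted p = 0.0516 and 0.403). Pttg1, the securin of mitosis, fell by 0.23 ± 0.14 (adjusted p = 0.0113, and 0.122 with the block).

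Beyond these lists the 12 largest increases among genes above 0 on all 8 arrays held genes of several roles. Usp8, a deubiquitinase of endosomes, had the highest mean, with values of 0.29 to 1.85 (median 1.10; 1.10 ± 0.52, adjusted p = 0.000599). Dbn1, an actin-binding protein, read from 0.72 to 1.70 (median 1.05; 1.09 ± 0.36, adjusted p = 0.000103). Usp8, Dbn1 and Sephs1, a relative of selenophosphate synthetase, were higher on replicates 3, 5 and 7 than on replicates 2, 6 and 8, without overlap. Sephs1 read from 0.60 to 1.26 (median 1.02; 0.96 ± 0.24, adjusted p = 2.69e-05). Exosc9, a subunit of the RNA exosome, leaned the other way, with 1.28 to 1.42 on replicates 2, 6 and 8 and 0.62 to 0.87 elsewhere (0.96 ± 0.35, adjusted p = 0.000194). Prdm16, a transcription factor of stem cells and brown fat, read from 0.70 to 1.27 (median 0.99, mean 1.00 ± 0.22, adjusted p = 1.58e-05) and also passed with the block. It was the only 1 of 8 measured genes on the list of stem and progenitor cells to pass. That share, 12.5% higher, was near the 11.1% of all tested genes.

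All 7 measured granulocyte genes passed, 4 higher and 3 lower, so the list did not move one way, and 3 higher and 0 lower passed with the block. The shares were 57.1% higher and 42.9% lower, against 11.1% and 7.38% of all tested genes. S100a9, a calcium-binding protein of neutrophils, read from 0.73 to 1.72 (median 0.98; 1.10 ± 0.36, adjusted p = 0.000101). Lcn2, which starves bacteria of iron and is also on the iron list, read from 0.52 to 1.57 (median 0.85; 0.98 ± 0.44, adjusted p = 0.00048), with 1.31 to 1.57 on replicates 2, 6 and 8. Anxa1, a regulator of inflammation, rose by 0.40 ± 0.20 (0.19 to 0.73, median 0.37, adjusted p = 0.00179). Ltf, lactoferrin, passed at 0.32 ± 0.32 (adjusted p = 0.0355) but not with the block (0.269), nor without replicate 2, 3, 4, 6 or 8 (adjusted p = 0.0767 to 0.0846). Hdc, the histidine decarboxylase of basophils and mast cells, and the calcium-binding protein S100a6 each fell by 0.29 (adjusted p = 0.0102 and 0.00855), and neither passed with the block (0.0761 and 0.0759). The part of granulocytes in the increases of dividing cells was not tested.

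Among genes of antigen presentation H2-Eb1, the beta chain of an MHC class II molecule, fell the most. It read from -1.66 to -0.79 (median -1.13; -1.18 ± 0.36, or 2.26-fold lower, adjusted p = 7.08e-05), with -1.66 to -1.51 on replicates 2, 6 and 8. H2-DMa, the other measured class II gene, which loads peptide, did not pass (-0.02 ± 0.15, adjusted p = 0.885). Of 5 genes of class I 4 fell, 0 rose and 1 did not pass (80%, against 7.38% of all tested genes), and 3 passed with the block. B2m, the light chain, read from -0.97 to -0.31 (median -0.66; -0.65 ± 0.26, adjusted p = 0.000352). H2-K1, a heavy chain, read from -0.84 to -0.68 on 5 arrays but from -0.32 to 0.01 on replicates 2, 6 and 8 (-0.51 ± 0.34, adjusted p = 0.00478). Probes of H2 genes can bind close relatives, so their identity within the family is uncertain. Tapbp, which loads peptide on class I, fell by 0.42 ± 0.19 on all 8 arrays (adjusted p = 0.00114). Tap2, a peptide transporter, passed at -0.22 ± 0.17 (adjusted p = 0.0223), but not with the block (0.154) nor in 4 of the 8 fits that left out a replicate (0.0503 to 0.0556).

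Of 9 genes of NF-kappa-B and cytokines 6 fell and 3 did not pass (66.7%, against 7.38% of all tested genes; median -0.20). With the block 2 passed. There were 5 decreases without replicates 2, 6 and 8, and 3 without replicates 3, 5 and 7. Nfkbia, the inhibitor that NF-kappa-B itself induces, read from -1.46 to -0.42 (median -0.85; -0.87 ± 0.30, adjusted p = 0.000144), with replicate 8 lowest and replicate 5 highest. Cxcl12, a chemokine of stromal cells that is also on the stroma list, read from -1.20 to -0.27 (median -0.65; -0.70 ± 0.31, adjusted p = 0.000556). Il16, a cytokine of lymphocytes, fell by 0.49 ± 0.36 (adjusted p = 0.00796) but not with the block (0.0834). Of 8 interferon response genes 3 fell and 5 did not pass (37.5% lower, against 7.38% of all tested genes), and 2 fell with the block. They were the GTPase Igtp (-0.48 ± 0.28, adjusted p = 0.00281), the transcription factor Irf1 (-0.45 ± 0.25, n = 7, adjusted p = 0.00405) and Ifitm3 (-0.30 ± 0.30, adjusted p = 0.0353), of which Ifitm3 did not pass with the block (0.0994) or in 5 of the 8 fits that left out a replicate (0.0641 to 0.0841). Igtp read from -0.92 to -0.64 on replicates 3, 5 and 7, and on replicates 2, 6 and 8 from -0.36 to -0.19.

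The 12 largest decreases among genes below 0 on all 8 arrays, a rule that leaves out genes measured on 7, held several more genes. Lsp1, an actin-binding protein of leukocytes, read from -1.16 to -0.07 (median -0.75; -0.74 ± 0.39, adjusted p = 0.00131), and replicate 5 was the array near 0. Dtx1, a regulator of Notch signalling in B and T cells, read from -1.11 to -0.27 (median -0.73; -0.69 ± 0.32, adjusted p = 0.000666). Stk17b, a kinase of T cells, read from -0.98 to -0.39 (median -0.63; -0.66 ± 0.19, adjusted p = 0.000103). Zfp36, which destabilises cytokine messages, fell by 0.67 ± 0.23 (-1.11 to -0.35, median -0.66, adjusted p = 0.000176), and Sh3bgrl3, a small thioredoxin-like protein, by 0.69 ± 0.19 (-1.02 to -0.48, median -0.70, adjusted p = 8.41e-05). Blnk, the linker of the B cell receptor and the only measured marker of B cells, fell by 0.58 ± 0.20 (n = 6, -0.80 to -0.33, adjusted p = 0.00092). Satb1, the only measured marker of T and NK cells, did not pass (-0.03 ± 0.12, adjusted p = 0.786). Of 5 plasma cell genes Xbp1, their transcription factor of secretion, fell by 0.49 ± 0.34 (-0.96 to -0.14, median -0.39, adjusted p = 0.00601), and 4 did not pass. With so few markers measured, the share of lymphocytes could not be followed. Ppbp, 1 of 2 measured platelet genes, fell by 0.63 ± 0.48 (adjusted p = 0.00808), and Selp did not pass (-0.22 ± 0.22, adjusted p = 0.0508).

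Among 25 measured genes of stromal cells, vessels and fat there were 13 decreases, 1 increase and 11 genes not past the test (52% lower, against 7.38% of all tested genes; median -0.21), and 7 fell and 1 rose with the block. Igfbp3, which binds insulin-like growth factors, fell by 0.94 ± 0.24 on all 7 arrays that measured it (-1.35 to -0.66, median -0.89, adjusted p = 8.41e-05). Clu, an extracellular chaperone, read from -1.37 to -0.07 (median -0.83; -0.89 ± 0.43, adjusted p = 0.000731). Mfge8, which bridges phagocytes and dying cells and is made by follicular dendritic cells, read from -1.34 to -0.43 (median -0.57; -0.80 ± 0.41, adjusted p = 0.00102). For Clu and Mfge8 replicates 2, 6 and 8 lay lowest, at -1.25 or below, and replicate 5 was closest to 0. Col3a1, a collagen, was the gene that rose (0.43 ± 0.08, adjusted p = 0.000103), but on 2 spots that disagreed, 1 at 0.86 ± 0.29 and the other at 0.0012 ± 0.33.

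Macrophage genes, 17 in number, gave 6 decreases, 1 increase and 10 not past the test. The shares were 35.3% lower and 5.88% higher, against 7.38% and 11.1% of all tested genes. The median was -0.15, and only Axl and C1qb passed with the block. Axl, a receptor for dying cells, fell by 0.37 ± 0.21 (n = 7, -0.61 to -0.09, median -0.32, adjusted p = 0.00639). The complement genes C1qb (-0.35 ± 0.23) and C1qa (-0.24 ± 0.16) and the protease Ctsl (-0.27 ± 0.16) fell with adjusted p of 0.00685, 0.0118 and 0.00677. Ctsb, a protease of the same family as Ctsl, went up by 0.34 ± 0.32 (adjusted p = 0.0269), but not with the block (0.0849) or in 4 of the 8 fits that left out a replicate (0.0588 to 0.0708). C1qa and Ctsl did not pass with the block either (0.111 and 0.0788).

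**Figure D4:**
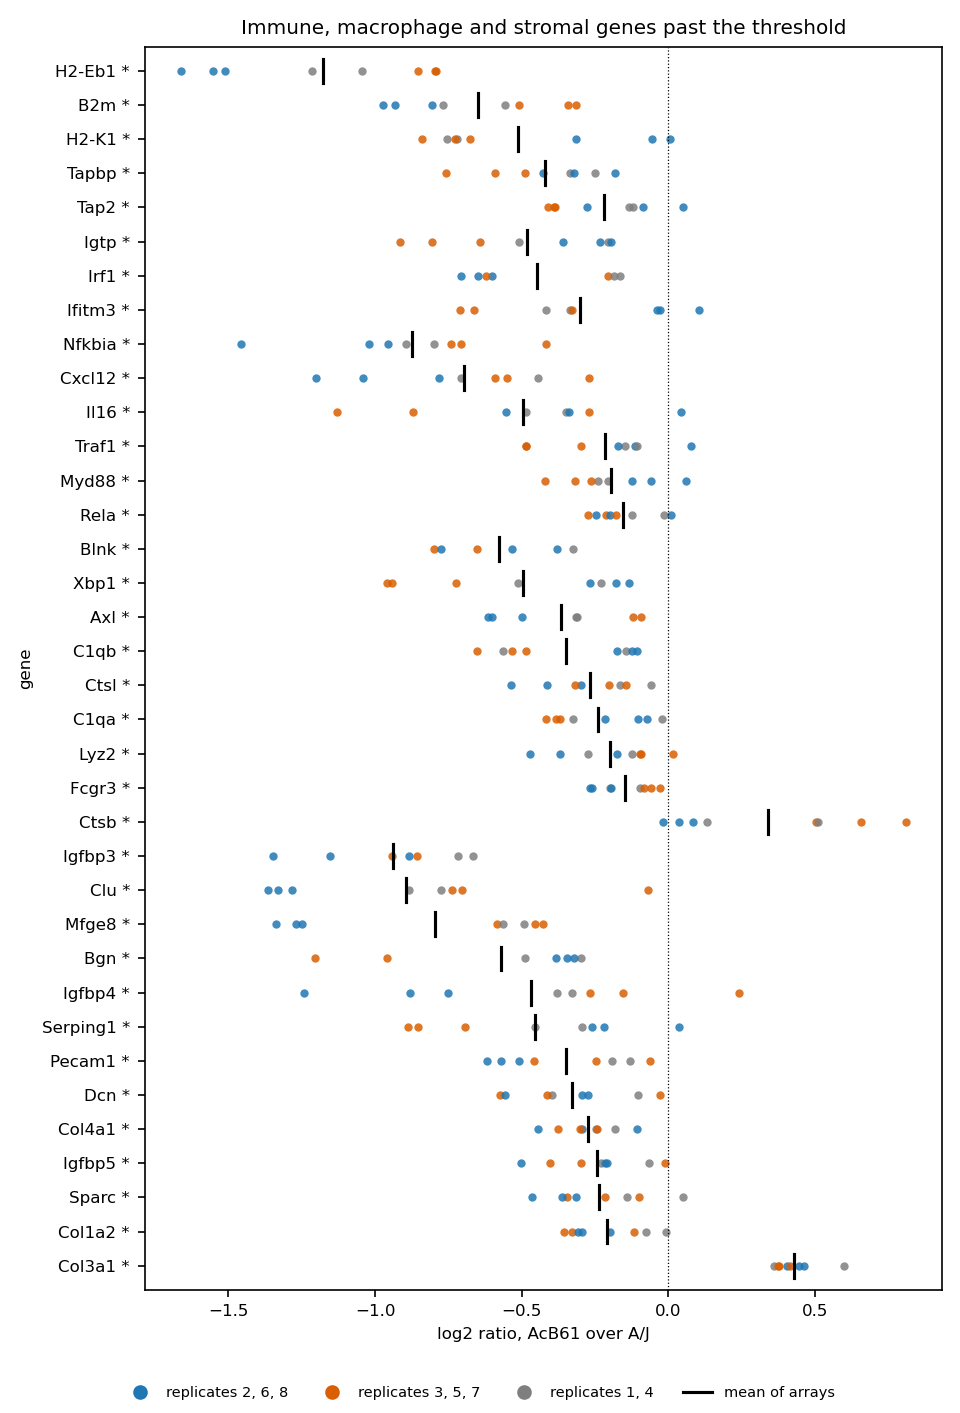
Log2 ratio of AcB61 over A/J (x axis) on each array for the genes of the MHC, interferon, NF-kappa-B, B cell, plasma cell, macrophage and stroma lists that passed the test (y axis), with dots coloured by array set and a bar at the mean. H2-Eb1 lies at -0.79 or below on all 8 arrays, while H2-K1 has replicates 2, 6 and 8 between -0.32 and 0.01.

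Xist, a noncoding RNA of X inactivation, had the lowest mean of the single-symbol genes that passed. It read from -1.71 to -0.73 (median -1.21; -1.20 ± 0.38, adjusted p = 8.75e-05), with no order by array set, and replicates 1, 4 and 6 were closest to 0. Besides Xist and H2-Eb1, the third gene to fall at least 2-fold was Shisa5, a membrane protein linked to apoptosis, which was looked up after its value was seen. It read from -1.42 to -0.53 on 7 arrays (median -0.95; -1.04 ± 0.30, adjusted p = 0.000111). Sex is not given for either channel, so a difference in sex between the mice and a difference between the strains cannot be told apart. Cpa1, a pancreatic enzyme that would mark tissue next to the spleen, did not pass (-0.27 ± 0.46, -0.89 to 0.48, adjusted p = 0.188).

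In the lists of protein synthesis, turnover and mitochondria most genes did not pass. Over all tested genes 11.1% were higher and 7.38% lower, and the shares of these lists stand beside that. Of 58 cytosolic ribosomal protein genes 2 rose and 1 fell, 55 were not past the test, the median was -0.02, and 0 passed with the block. Without replicates 2, 6 and 8 these calls numbered 12 higher and 7 lower, and without replicates 3, 5 and 7 they numbered 6 and 7. Calls over all features rose in these fits too, from 1121 higher and 1459 lower of 13051. They numbered 1515 and 1843 of 13051 in the former, and 1533 and 1785 of 13050 in the latter. Translation factors gave 12 increases of 44 (27.3%; 5 with the block), led by the poly(A)-binding protein Pabpc4 (0.69 ± 0.35, n = 7, adjusted p = 0.00186). Of 14 tRNA synthetases 4 rose (28.6%; 2 with the block), with Farsa at 0.81 ± 0.52 and Hars at 0.53 ± 0.23 (adjusted p = 0.00311 and 0.000673). Farsa read 0.24 on average in replicates 2, 6 and 8 and 1.25 in replicates 3, 5 and 7. Of 37 proteasome genes 9 rose (24.3%), but 1, Psmd1, did with the block (0.32 ± 0.13, adjusted p = 0.00149, and 0.0347 with the block). Without replicates 2, 6 and 8 proteasome calls numbered 16 higher and 0 lower, and without replicates 3, 5 and 7 they numbered 12 and 2. Chaperones gave 10 increases and 1 decrease of 38 (26.3% and 2.63%), and 3 and 0 with the block. Hsp90aa1 was highest, with 0.39 to 0.81 over the arrays, a median of 0.57 and a mean of 0.59 ± 0.13 (adjusted p = 4.43e-05). It averages 5 spots with means of 0.48 to 0.66, each of which varied more between arrays (SD 0.18 to 0.55).

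Of 61 genes of oxidative phosphorylation 13 rose, 1 fell and 47 did not pass (21.3% higher, against 11.1% of all tested genes). The median was 0.16, and 4 rose and 1 fell with the block. This list differed between the array sets, with a median of 0.32 in replicates 2, 6 and 8 and of -0.01 in replicates 3, 5 and 7. Without the former 16 rose and 3 fell, and without the latter 28 rose and 1 fell. As given above, calls over all features also rose in both of these fits. Ndufs6, a subunit of complex I, read from 0.53 to 1.35 (median 0.72; 0.81 ± 0.27, adjusted p = 0.000118), with replicate 3 highest. Atp5b, the catalytic subunit of ATP synthase, rose by 0.45 ± 0.11 on all 8 arrays (adjusted p = 0.000156). It averages 3 spots, each of which varied more between arrays (SD 0.18 to 0.48). Cox7a2l, which links respiratory complexes, fell by 0.34 ± 0.16 (adjusted p = 0.00204). Mitochondrial ribosomal proteins gave 4 increases and 2 decreases of 44 (0 and 1 with the block, and 10 and 4 without replicates 3, 5 and 7). These shares, 9.09% and 4.55%, were below those over all tested genes, 11.1% and 7.38%. The list of the citrate cycle and fatty acid oxidation gave 4 and 3 of 27, and 0 passed with the block. Its shares, 14.8% and 11.1%, were near those over all tested genes. Of this list, Acadl rose by 0.22 ± 0.07 (adjusted p = 0.00331) on 2 spots that disagreed, 0.40 ± 0.24 and 0.05 ± 0.23.

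**Figure D5:**
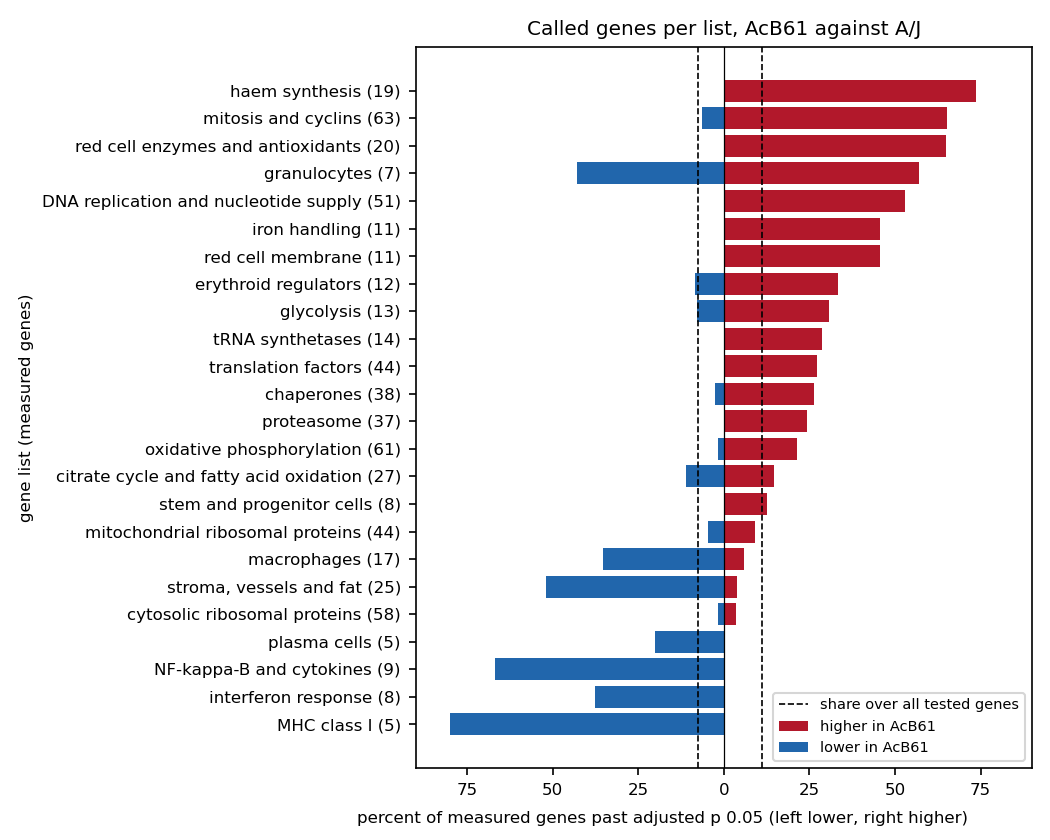
Percent of the measured genes of each list with at least 5 measured genes (y axis, number measured in brackets) that passed the test in AcB61, higher to the right and lower to the left of 0 (x axis). Dashed lines mark the shares over all tested genes, 11.1% higher and 7.38% lower, and haem synthesis reaches 73.7% to the right and MHC class I 80% to the left.

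AcB61 was also set against AcB55, the other congenic strain, in a fit over all 14 arrays. The ratios of both strains share A/J as the second channel, so only the difference between the strain means was tested. Of 6286 genes 655 differed (10.4%), 427 higher in AcB61 (6.79%) and 228 lower (3.63%). Of 58 cytosolic ribosomal protein genes 26 were higher in AcB61 than in AcB55 and 0 lower. Of 19 haem synthesis genes 4 were higher and 0 lower, of 63 genes of mitosis and cyclins 2 were higher and 9 lower, and of 51 replication genes 4 were higher and 4 lower. Alas2 stood at 0.92 in AcB61 and 0.41 ± 0.33 in AcB55 (n = 6, difference 0.51, adjusted p = 0.0193). Hbb-y stood at 0.92 and 0.07 ± 0.20 (difference 0.85, adjusted p = 0.000453), and Cd24a at 0.77 and 0.06 ± 0.13 (difference 0.71, adjusted p = 0.00402). Slc4a1 stood at 1.07 and 1.28 ± 0.31, a difference that did not pass (-0.21, adjusted p = 0.32). Mki67 went the other way, at 0.82 in AcB61 and 1.83 ± 0.25 in AcB55 (difference -1.01, adjusted p = 4.33e-05). Hmox1, which did not pass in AcB61, stood at 0.88 ± 0.27 in AcB55 (n = 5, difference -0.79, adjusted p = 0.00209). Xist was at 0.02 ± 0.06 in AcB55 (difference -1.22, adjusted p = 7.16e-05).

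In this comparison the AcB61 array sets were also taken as a random block, with each AcB55 array on its own. That choice was made after the data were seen. Of 6286 genes 238 then differed, 144 higher in AcB61 and 94 lower. Of 58 ribosomal protein genes 9 were then higher and 0 lower, and of 19 haem synthesis genes 0 were higher. Of 63 mitosis genes 1 was higher and 4 lower, and of 51 replication genes 0 were higher and 3 lower. Alas2 lost its call (adjusted p = 0.0654), while Hbb-y, Cd24a, Mki67, Hmox1 and Xist kept theirs (0.00266, 0.0304, 0.000239, 0.0129 and 0.00243).

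The counts of this comparison moved with single arrays too. All features that differed numbered 1601 (5.29% of the features tested higher and 6.98% lower), and 924 and 854 without AcB55 replicate 5 or 6. Those higher in AcB61 numbered 690, and 419, 377 and 333 without AcB55 replicate 4, 5 or 6 and 434 without AcB61 replicate 1, while those lower numbered 911, and 547 and 521 without AcB55 replicate 5 or 6.

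Along the genome the called genes were spread over all chromosomes. In the order of GRCm38.p6, 6283 tested genes could be placed, and between 14.4% (chromosome 18) and 22.4% (chromosome X) of the genes of a chromosome passed in AcB61. Runs of at least 3 neighbouring tested genes that all rose or all fell numbered 14, 9 of them higher and 5 lower, and the longest held 4 genes. That run, on chromosome 7, was Ruvbl2, Ftl1, Nucb1 and Ppp1r15a, with means of 0.17 to 0.46. Other runs held Tfrc with Pcyt1a and Tnk2 on chromosome 16, and Gapdh with Ncapd2 and Mrpl51 on chromosome 6. The sources used here do not say which of these genes lie in C57BL/6 segments of AcB61.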

How the data were processed

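Spleen cDNA was measured on 14 arrays with 2 channels (8 AcB61, 6 AcB55, each against A/J). Per the labels, RNA was extracted with TRIzol, total or poly(A) RNA was labelled with Cy3 or Cy5, images were taken with a ScanArray scanner and quantified with QuantArray 3.0, and data went into GeneSpring. The label text breaks off at the dye swap, and how the ratios were normalized is not given in the sources read here. The authors deposited 1 ratio per feature and array, read here as log2 because the values are positive and negative decimals with array medians of -0.021 to 0.0087. Spot intensities were not used, and each AcB61 array gave 14197 to 14588 values.

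Of 14612 measured probes, 7849 had 1 gene symbol in the platform annotation, 356 several and 6407 none listed, and 7830 were found in the reference gene table. Spots with the same symbol were averaged within an array, and features with values on at least 3 AcB61 arrays were tested (13051). The mean ratio was tested against 0, two-sided, with lmFit and eBayes of limma 3.58.1 in R 4.3.3 on the AcB61 arrays alone, and AcB61 minus AcB55 over all arrays. The threshold was an adjusted p of 0.05. The fit of the mean against 0 was tried on simulated data whose arrays were independent. That trial cannot show how the fit behaves with correlated array sets. The fit of AcB61 minus AcB55 and the fits with a block were not tried on simulated data. Tables and figures used Python 3.11.15 with pandas 2.3.3 and matplotlib 3.10.9.

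Named genes are the 12 largest changes in each direction past the threshold with 1 sign on all arrays, up to 4 members per list and direction past the threshold, all measured members of the haem, globin, membrane and regulator lists, and a few fixed genes. Others, such as Shisa5, Blnk, Satb1, Ppbp, Selp, H2-DMa, the Mcm subunits and neighbouring genes, were chosen after their values were seen or come from short lists. The members and lists were chosen with earlier results of these data known. Of the 32 lists, those of the vanins and malaria candidates and of X inactivation were each measured by 1 gene, Hmox1 and Xist, and the genes Pklr, Vnn1 and Vnn3 were not analysed here. Alternatives covered filters, centring, scaling, probe averaging, robust and weighted fits, an exact sign-flip test, blocks and leaving out arrays.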

Additional observations from a re-analysis of the deposited data

Results flagged for a closer look

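A single array stood far from the others in 3 of the 145 named genes, by a gap that chance gives in about 1 of 20 groups. At that rate chance alone would flag more than 3 of 145. Replicate 3 read 1.21 for Slc25a39, against 0.53 to 0.84 on the other arrays. Replicate 1 read 0.60 for Col3a1, against 0.36 to 0.46. Replicate 5 read -0.14 for Acadvl, an enzyme of fatty acid oxidation, against 0.13 to 0.34.

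The difference between AcB61 and AcB55 passed the test for 34 named genes, given here as the difference of the mean log2 ratios, AcB61 minus AcB55. Higher in AcB61 were Hbb-y by 0.85, Cd24a by 0.71, Alas2 by 0.51, Glrx5 by 0.45, Tmem14c by 0.39, Alas1 by 0.38 and Ermap by 0.25. Ermap lay near A/J in AcB61 and below it in AcB55. Of the other large increases of AcB61, Usp8 differed by 0.86, Dbn1 by 0.79, Prdm16 by 0.72 and Sephs1 by 0.52. Genes of mitochondria and protein synthesis that were higher were Ndufs6 (0.83), Farsa (0.66), Ndufb9 (0.46), Hars (0.37), Acadl (0.33), Cox7a2l (0.33), Suclg2 (0.32), Rplp0 (0.28) and Mdh1 (0.27), and Mrpl27 was lower (-0.33). The collagen Col3a1 (0.57), the cytokine Il16 (0.61) and Xbp1 (0.52) were higher too. Cox7a2l, Mdh1, Il16 and Xbp1 lay below A/J in both strains, and less so in AcB61. Xist (-1.22), Mki67 (-1.01), Clu (-0.88), the GTPase Igtp (-0.81), Hmox1 (-0.79), Bcl2l1 (-0.76), Pttg1 (-0.75), H2-K1 (-0.70), Stil (-0.45) and Rb1 (-0.30) were lower in AcB61. Adjusted p (limma) ranged from 3.1e-05 for Col3a1 to 0.0481 for Tmem14c. Col3a1 and Acadl each average 2 spots that disagreed. In AcB61 the spots of Col3a1 read 0.86 ± 0.29 and 0.0012 ± 0.33, and their average had an SD of only 0.08. For Acadl the SDs were 0.24 and 0.23, and 0.07 for the average. The p-values of both genes thus rest on averages that varied less than either spot. With the AcB61 array sets as a random block 19 of the 34 kept the call, and 15 lost it: Alas1, Alas2, Cox7a2l, Ermap, Glrx5, Hars, Il16, Mdh1, Mrpl27, Ndufb9, Rb1, Rplp0, Sephs1, Tmem14c and Xbp1 (adjusted p = 0.0517 to 0.153).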

How the results depend on the processing

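No paired analysis was possible because no number in the array titles is shared between the groups, and the replicate numbers used here are only the order of deposit. Of 2580 calls (1121 higher and 1459 lower), 0 remained in the exact sign-flip test, in either direction. With 8 arrays the exact sign-flip test cannot go below p = 0.00781, which is 0.0621 once adjusted, and 1642 features (12.6%) reached it. At an unadjusted p under 0.05 the sign-flip test gave 3658 features and limma 4155. Replicates 1 to 4 alone gave 575 calls (362 higher and 213 lower) and replicates 5 to 8 alone 78 (54 higher and 24 lower). With these 2 sets of 4, which differ in the numbers in the array titles, as a random block, 5557 passed (2517 higher and 3040 lower), at an estimated correlation of -0.202. With the correlated array sets as a random block, at a correlation of 0.539, 954 passed (456 higher and 498 lower). Leaving out 1 array gave 2013 to 2464 calls, 889 to 1082 higher and 1114 to 1382 lower. Leaving out replicates 2, 6 and 8 together gave 3358 and leaving out replicates 3, 5 and 7 together 3318. Robust regression gave 1943, array weights 3191, a fit on all 14 arrays 3103, and the filters, centring, scaling and probe rules between 2320 and 2882. A minimum of 2 arrays tested the same features as a minimum of 3. For AcB61 minus AcB55, leaving out 1 array of either strain gave 854 to 1694 calls, 333 to 774 higher and 521 to 1051 lower, and the cause of this range was not tested. With the AcB61 array sets as a random block, at a correlation of 0.548, 613 passed (236 higher and 377 lower) in place of 1601 (690 and 911). Of the 124 named genes that passed, 25 lost the call without some array and 44 with the array sets as a block, and 0 changed direction in any setting. Of all 145 named genes 101 had 1 sign on every array, so leaving out arrays could not change their direction.

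Depth is unknown because spot intensities were not used. With ratios alone, a dim spot cannot be told from a bright one, and small changes of genes measured by 1 spot rest on that spot.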

Other observations

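The array sets split some genes widely. Elp5, a subunit of the Elongator complex, read 0.56 to 0.70 on replicates 3, 5 and 7, whereas replicates 2, 6 and 8 gave -0.68 to -0.52, and its mean over all arrays was -0.01. Pphln1 read 0.77 to 0.86 on the former and -0.56 to -0.14 on the latter. The importin Ipo9 went the other way, with 0.44 to 0.73 on replicates 2, 6 and 8 while replicates 3, 5 and 7 gave -0.75 to -0.43. None of these 3 genes passed the test (limma adjusted p = 0.978, 0.47 and 0.878), and they were chosen for the size of the split. Replicate 1 correlated with the average of both set means at r = 0.77 over 12889 features, and with each set mean at 0.672 (replicates 2, 6 and 8) and 0.464 (replicates 3, 5 and 7). For replicate 4 these values were 0.74, 0.451 and 0.651. All of these share the same features and arrays, so the correlations are descriptions without a test.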
